A study of Mus musculus with 8 samples.

Results

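Integrins are cell surface receptors made of an alpha and a beta subunit, and laminins are the cross-shaped trimers of an alpha, a beta and a gamma chain that make up much of the basement membrane beneath an epithelium. The genes described here are the integrin and laminin subunits of mouse intestinal adenomas, taken from the deposited sheet by their symbols. Of its 48440 rows, 39 carry the symbol of an integrin subunit (19 alpha rows and 9 beta rows) or of a laminin chain (11 rows). They stand for 38 genes, because the sheet holds 2 rows for Itgam, Itgam_1 and Itgam_2, and does not say how they differ. Itgam_2 had values between 0 and 9 and was the only row that did not pass the filter on low values, so 38 rows were tested.

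The adenomas came from the small intestine of C57BL/6 mice that all carried ApcMin/+, the mutant allele of the tumour suppressor gene Apc that gives intestinal polyps. The control group held 4 ApcMin/+ mice, 256 to 282 days old. The knockout group held 4 ApcMin/+/14-3-3σ-/- mice, 144 to 148 days old, which also lacked 14-3-3σ, the phosphoprotein-binding product of Sfn. The labels name no Cre or promoter that would limit the deletion to a tissue. Age and genotype cannot be told apart. RNA was taken from adenoma tissue with all its cell types, so that fewer cells of a type and less RNA per cell cannot be told apart either. Values are normalised read counts, and fold changes are knockout minus ApcMin/+ on the log2(value + 1) scale.

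Sfn was at 6585 to 15968 in the ApcMin/+ libraries and at 0 or 1 in the knockout libraries. The genotypes differed by -12.81 on the log2 scale, with an exact permutation p, two-sided, of 0.0286, the smallest that 4 against 4 libraries allow. A knockout library whose column carries the number of an ApcMin/+ mouse is called the unnumbered knockout library. The libraries summed to between 34243101 and 46787238 after normalisation, and depth before it is unknown. Defining markers of the intestinal epithelium were high in all libraries: the summed value of 12 such genes was 468133 to 834841. Values of Xist, which silences an X chromosome in female cells, exceeded 1000 in 3 libraries: ApcMin/+ replicates 2 and 3 and the unnumbered knockout. The Y-linked gene Ddx3y was at 0, 2 and 0 in these libraries and at 1435 to 2132 in the others.

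In epithelia, integrin α6β4 binds laminin with the α3 and β3 chains and anchors cells through hemidesmosomes, while β1 integrins such as α3β1 and α6β1 link laminins to actin. Integrins with the αv subunit bind ligands with an RGD sequence and, in the case of αvβ6 and αvβ8, release active TGF-beta. Leukocytes carry β2 and β7 integrins, which bind cell surface ligands such as ICAM-1 and E-cadherin. In the intestine, laminins of the α1, α2, α4 and α5 chains lie in the basement membranes of crypts, villi, muscle and vessels.

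No integrin or laminin subunit passed the test between ApcMin/+ and knockout adenomas, although several lay apart by library. Of the 38 tested rows, 0 had a limma adjusted p under 0.05, against 0.331% of all 17523 tested genes. At an unadjusted limma p under 0.05 there were 10 of 38 rows (26.3%), against 18.9% of all tested genes. Of these, 7 were higher and 3 lower in the knockout, against 7.39% and 11.6% of all tested genes. For 5 of 38 rows (13.2%) no knockout library lay among the ApcMin/+ libraries, against 16.1% of all tested genes. Of these, 3 were higher and 2 lower, against 5.5% and 10.6% of all tested genes. The median log2 fold change was 0.13 over the 38 rows, 0.05 over the 27 integrin rows and 0.23 over the 11 laminin chains, beside -0.07 over all tested genes. The smallest limma adjusted p was 0.108, that of Itgam_1, which fell under 0.05 with the direction removed by the normalisation left uncounted (0.0442), where 2.43% of all tested genes passed.

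**Figure D1:**
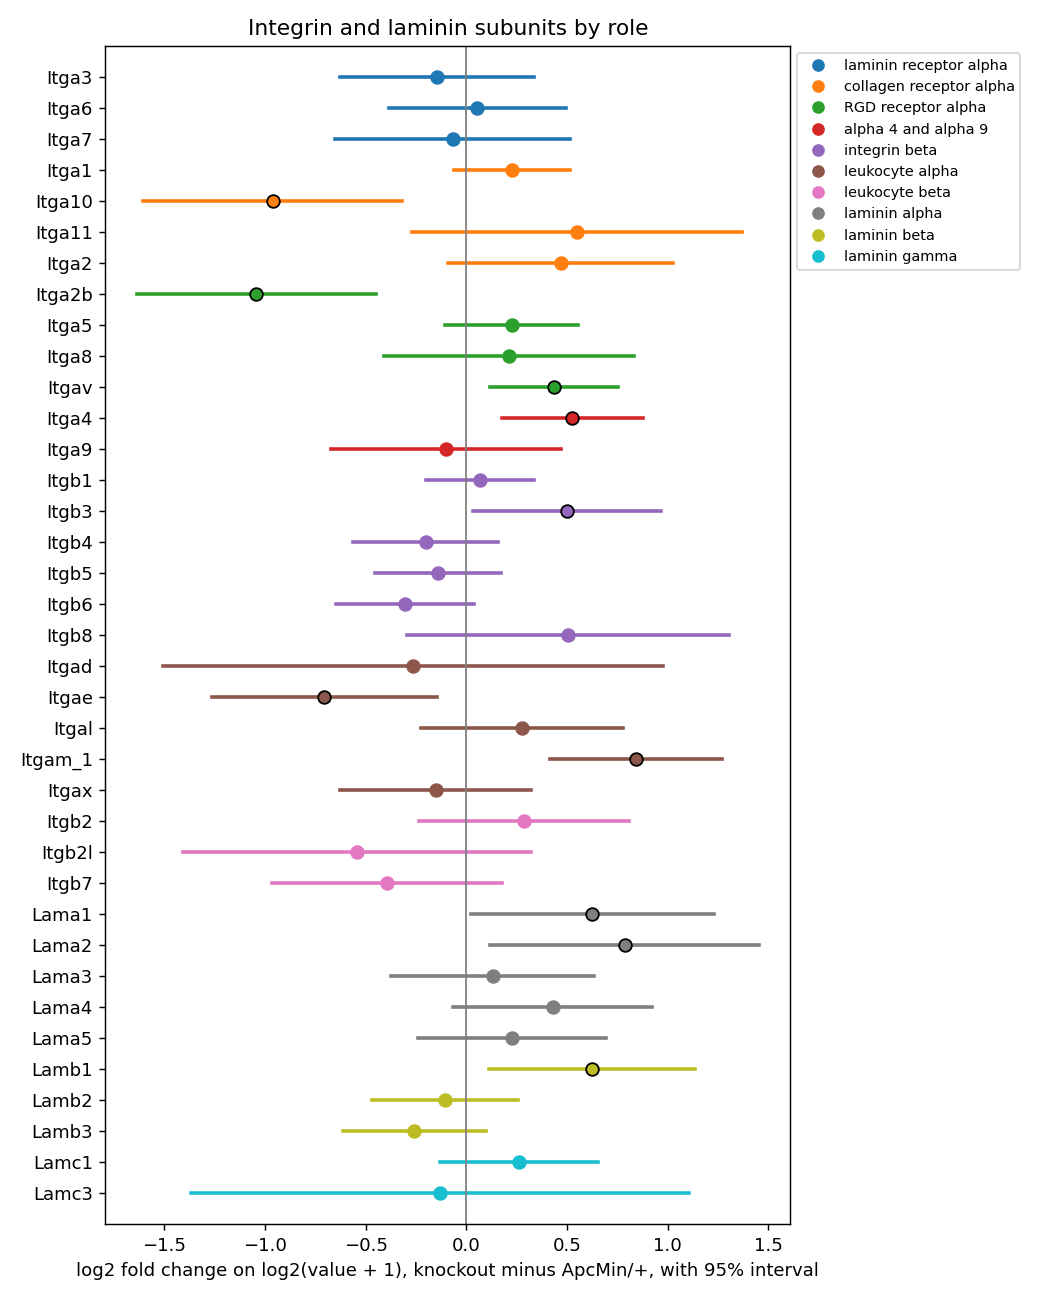
Log2 fold change of 37 tested integrin and laminin rows (x axis, knockout minus ApcMin/+ on log2(value + 1)), grouped by role (colour), with the limma 95% interval as a bar and a black rim for an unadjusted p under 0.05. Values run from -1.04 for Itga2b to 0.84 for Itgam_1, and most intervals cross 0.

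The subunits of the epithelial laminin receptors had the highest levels. Per kilobase of merged exons, Itgb1, the beta subunit shared by most laminin, collagen and fibronectin receptors, had the highest level, 4495 ± 201 in ApcMin/+ and 4717 ± 364 in knockout adenomas (normalised read count per kilobase, mean ± SD, n = 4 each). Itgb4, the hemidesmosome beta subunit, was at 1800 ± 276 and 1563 ± 215 per kilobase. Its only partner, Itga6, was at 1684 ± 397 and 1726 ± 241 per kilobase. Itga3, the alpha chain of α3β1, was at 1609 ± 477 and 1412 ± 158. In ApcMin/+ adenomas the means of Itgb4, Itga6 and Itga3 lay within an SD of each other, and in knockout adenomas Itga6 lay above Itga3 by more than the SD of either.

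Among the laminin chains, Lamb3 of the hemidesmosome laminin was at 1106 ± 198 per kilobase in ApcMin/+ adenomas and 919 ± 110 in knockout adenomas. Its partner Lama3 was lower, at 482 ± 121 and 524 ± 108 per kilobase. Lama5 and Lamc1, found in most mature epithelial and vascular basement membranes, were at 451 ± 124 and 421 ± 49.2 per kilobase in ApcMin/+ adenomas, within the spread of Lama3. Of the beta chains that pair with them, Lamb1 was at 261 ± 61.5 and Lamb2 at 272 ± 59.0 per kilobase in ApcMin/+ adenomas. In knockout adenomas Lamb1 was at 402 ± 92.7 and Lamb2 at 248 ± 12.9 per kilobase, and their libraries did not overlap. At the low end, Lama2 (3.73 ± 1.03) and Lamc3 (1.97 ± 0.884) were under 10 per kilobase, as were Itga8, Itgad and Itgb2l. Merged exon lengths count every annotated isoform, so levels of genes with long rare exons, such as Itga1, are understated.

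**Figure D2:**
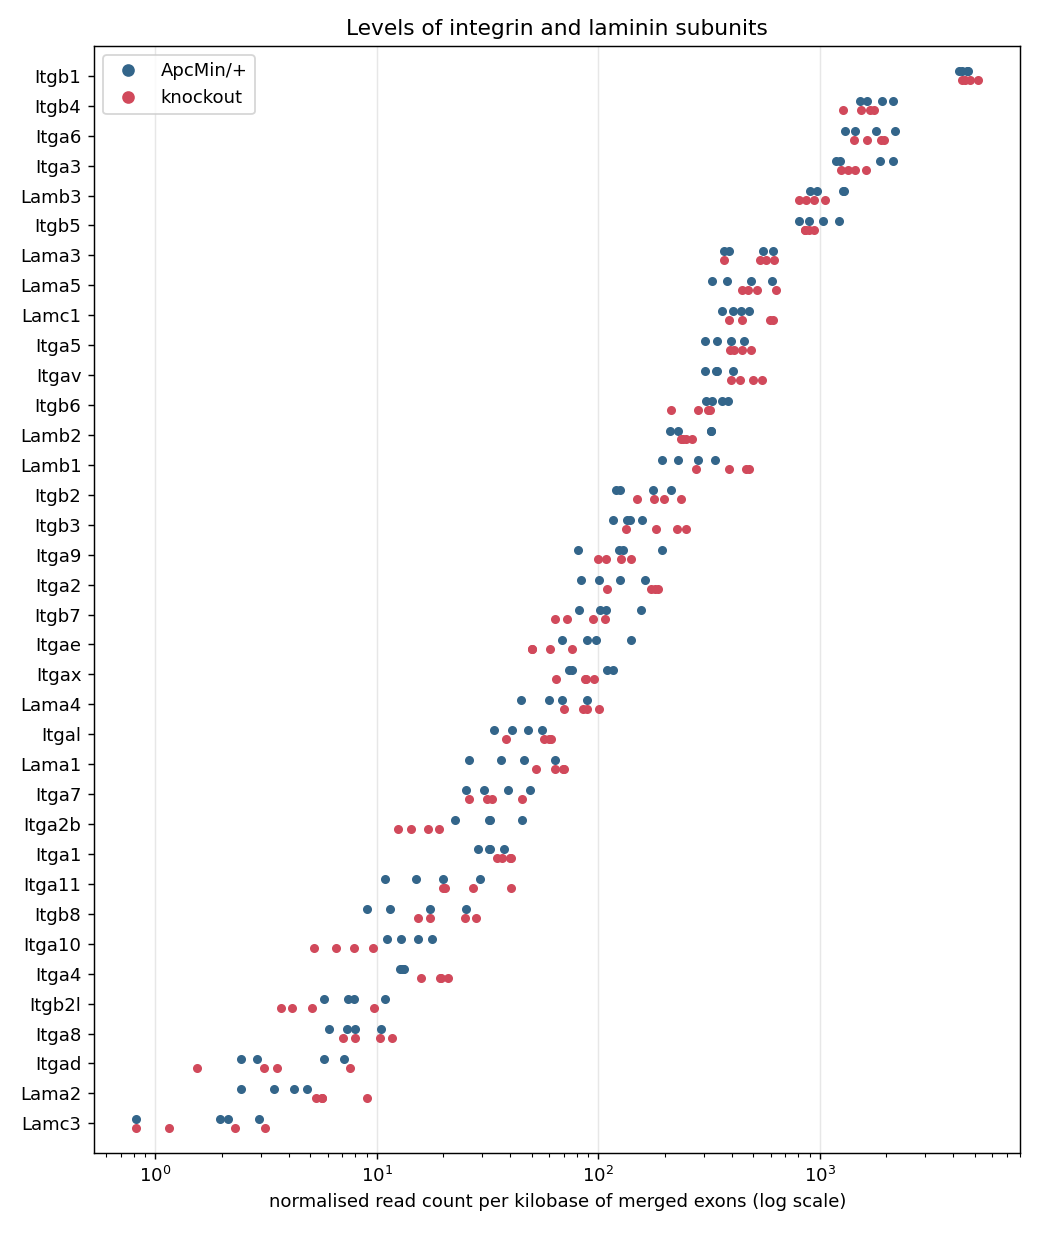
Normalised read count per kilobase of merged exons (x axis, log scale) of 36 integrin and laminin rows, 1 point per library, ApcMin/+ in blue and knockout in red. Itgb1 lies highest, followed by Itgb4, Itga6 and Itga3, and Lamc3 lies lowest; points of the genotypes overlap for most rows.

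None of the hemidesmosome subunits differed beyond the spread between libraries. Itga6 was at 16273, 13080, 11704 and 19743 in ApcMin/+ replicates 1 to 4. In the knockout it was at 17663 in the unnumbered library and at 12930, 14690 and 17021 in replicates 2 to 4. Both ranges span about the same values, with a log2 fold change of 0.05 (95% interval -0.39 to 0.49, limma adjusted p = 0.906). Itgb4 was at 13335, 11485, 10686 and 15003 in ApcMin/+ replicates 1 to 4. It was at 11835, 8942, 10743 and 12343 in the knockout libraries, in the same order as above. The groups overlapped, and the log2 fold change was -0.20 (95% interval -0.56 to 0.16, limma adjusted p = 0.507). Itgb1 was at 17433, 19121, 17868 and 18948 in ApcMin/+ and at 18467, 17816, 19496 and 21222 in knockout libraries. Knockout replicates 3 and 4 lay above every ApcMin/+ library and the others lay among them (log2 fold change 0.07, 95% interval -0.20 to 0.34, limma adjusted p = 0.788). Itga3 was at 6740 to 12243 and 7110 to 9231, a log2 fold change of -0.15 (95% interval -0.63 to 0.34). Itga7, a laminin receptor chain best known from muscle, was at 205 to 398 and 211 to 368, a log2 fold change of -0.07.

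The α3 and β3 chains of the hemidesmosome laminin overlapped between the genotypes as well. Lama3 was at 5968, 4176, 3972 and 6581 in ApcMin/+ and at 5773, 3975, 6129 and 6653 in knockout libraries. ApcMin/+ replicates 2 and 3 and knockout replicate 2 were lowest, and the log2 fold change was 0.13 (95% interval -0.37 to 0.63, limma adjusted p = 0.779). Lamb3 was at 8379, 5985, 6397 and 8494 in ApcMin/+ and at 5732, 6230, 5321 and 7018 in knockout libraries. Its log2 fold change was -0.26 (95% interval -0.61 to 0.10, limma adjusted p = 0.398). Of 4 hemidesmosome partners 3 were tested, since Col17a1, a transmembrane collagen, was at 10 or below in every library. Plec and Dst, which link α6β4 to keratin filaments, had log2 fold changes of 0.09 and 0.16, and the tetraspanin gene Cd151 had -0.18; 0 of these 3 passed over all genes in limma. At an unadjusted limma p under 0.05 there were 0 of the 3 as well. For 1 of the 3, Cd151, every knockout library (5322 to 5792) lay below every ApcMin/+ library (5944 to 6757), as for 10.6% of all tested genes. Summed markers of stratified epithelia, which also use this laminin, were at 2642 to 3746 in ApcMin/+ and at 1002 to 2187 in knockout libraries. Of the 6 that were tested, 5 had a log2 fold change below 0, and only Krt4 passed (-2.74, limma adjusted p = 0.0426). Dsg3 went the other way (0.90, limma adjusted p = 0.291). The largest part of the sum came from Sprr1a, at 561 to 2664 and 571 to 1282, which overlapped between the genotypes (-0.55, limma adjusted p = 0.537). Krt5 and Trp63, which define basal cells, were too low to be tested. Their part in these values was not tested.

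Among laminins outside the hemidesmosome, the α1, α2 and β1 chains were higher in the knockout adenomas without passing the adjusted threshold. Lamb1 (chromosome 12, 31265234 to 31329644, GRCm38), which encodes the β1 chain of most stromal and epithelial laminins, was at 1933, 3326, 2801 and 2274 in ApcMin/+ replicates 1 to 4. It was at 2745, 3850, 4761 and 4600 in the knockout libraries. Knockout replicates 2 to 4 lay above all ApcMin/+ libraries, and the unnumbered knockout library lay among them. The log2 fold change was 0.62 ± 0.22 (SE, n = 4 each; limma adjusted p = 0.202). Lama1 (chromosome 17, 67697259 to 67822647), the α1 chain, was at 252, 618, 449 and 354 in ApcMin/+ and at 506, 677, 615 and 670 in knockout libraries. ApcMin/+ replicate 2 lay within the knockout range (log2 fold change 0.63 ± 0.26, limma adjusted p = 0.251). Lama2 (chromosome 10, 26980036 to 27619758), the α2 chain of muscle and nerve basement membranes, was at 56, 69, 79 and 40 in ApcMin/+ and at 93, 87, 148 and 93 in knockout libraries. The groups did not overlap (log2 fold change 0.79 ± 0.29, limma adjusted p = 0.213).

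The remaining laminin chains did not reach an unadjusted limma p under 0.05. Lama5 was at 3726, 6910, 5560 and 4349 in ApcMin/+ and at 5411, 5071, 7194 and 5928 in knockout libraries (log2 fold change 0.23, 95% interval -0.24 to 0.70). Lamc1, the γ1 chain that pairs with β1 and β2, was at 2996, 3949, 3343 and 3633 in ApcMin/+ and at 3220, 3680, 4920 and 5088 in knockout libraries. Knockout replicates 3 and 4 lay above every ApcMin/+ library and the other knockout libraries lay among them (log2 fold change 0.26, 95% interval -0.13 to 0.65). Lama4, the α4 chain of vessels, was at 540 to 1079 and 845 to 1221, a log2 fold change of 0.43. Lamb2, which takes the place of β1 in some of these trimers, was at 1289 to 1962 and 1445 to 1620, a log2 fold change of -0.11. All 5 alpha chains had a log2 fold change above 0, 0.13 to 0.79, while beta and gamma chains lay on both sides of it. In the 5 libraries with Xist at or below 1000, Lama3 turned to -0.20 and the other 4 alpha chains stayed above 0.

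**Figure D3:**
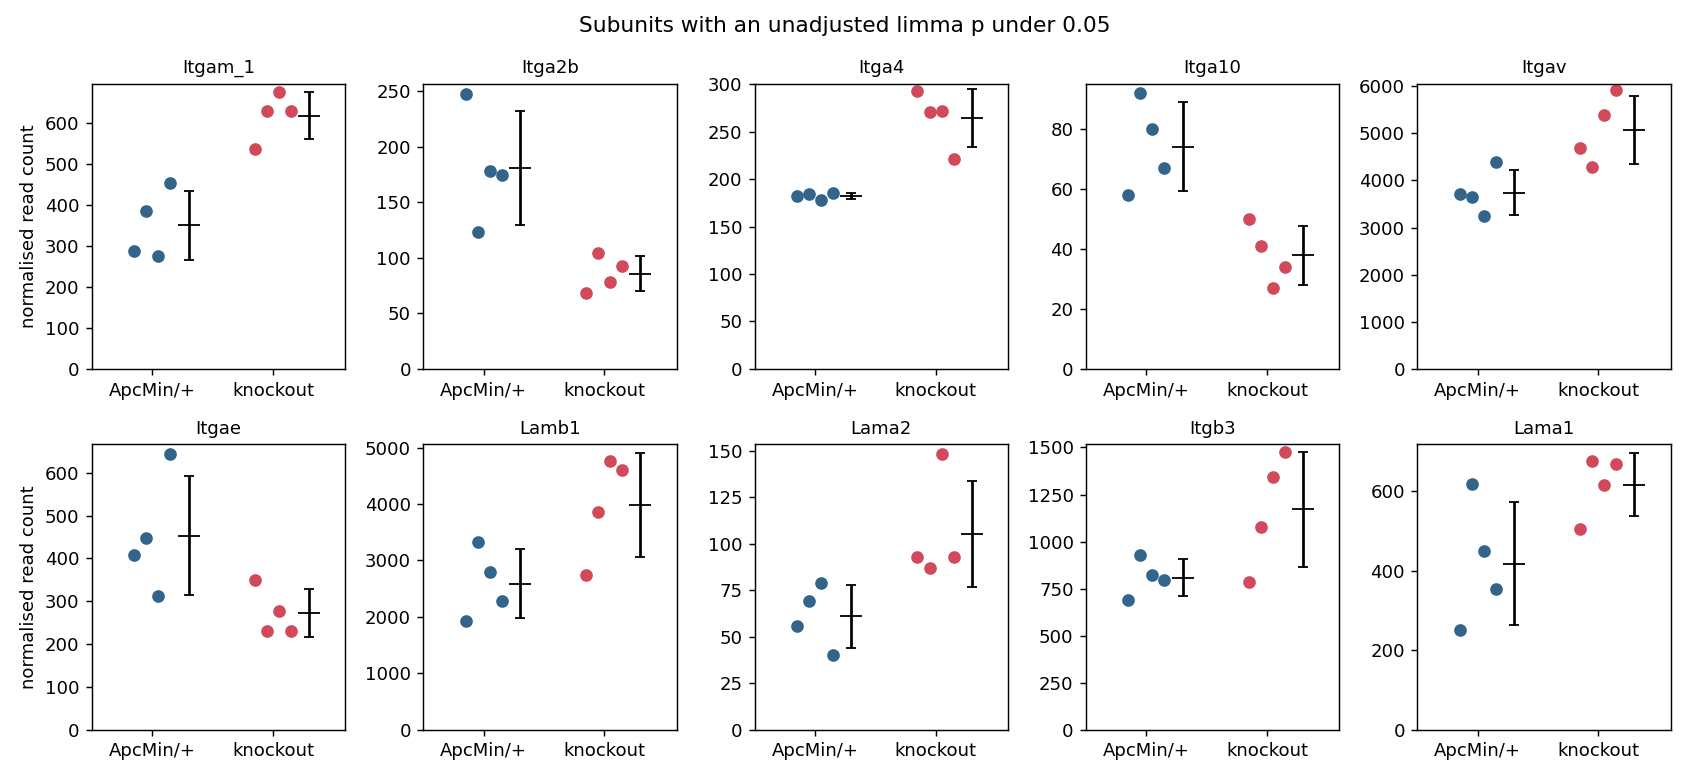
Normalised read counts (y axis) of the 10 rows with an unadjusted limma p under 0.05, 1 point per library in the order ApcMin/+ replicates 1 to 4, unnumbered knockout library and knockout replicates 2 to 4, with mean and SD (black, n = 4). The genotypes do not overlap for Itgam_1, Itga2b, Itga4, Itga10 and Lama2, and they overlap for Itgav, Itgae, Lamb1, Itgb3 and Lama1.

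Itgav and Itgb3, which together form the vitronectin receptor αvβ3, were both higher in knockout adenomas without passing the adjusted threshold. Itgav (chromosome 2, 83724397 to 83806916) was at 3706, 3643, 3243 and 4381 in ApcMin/+ and at 4698, 4285, 5382 and 5920 in knockout libraries. Only ApcMin/+ replicate 4 reached into the knockout range (log2 fold change 0.44 ± 0.14, limma adjusted p = 0.170). Itgb3 (chromosome 11, 104608000 to 104670476) was at 689, 927, 821 and 798 in ApcMin/+ and at 784, 1078, 1343 and 1477 in knockout libraries. Here knockout replicates 2 to 4 lay above all ApcMin/+ libraries (log2 fold change 0.50 ± 0.21, limma adjusted p = 0.243).

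The other partners of αv had fold changes on both sides of 0, and none reached an unadjusted limma p under 0.05. Itgb6, the epithelial beta chain that releases active TGF-beta, was at 2569, 2326, 2191 and 2739 in ApcMin/+ and at 1997, 1518, 2235 and 2271 in knockout libraries. The groups overlapped, with a log2 fold change of -0.31 (95% interval -0.65 to 0.04, limma adjusted p = 0.310). Itgb5 was at 2876 to 4334 and 3039 to 3334, a log2 fold change of -0.14 (95% interval -0.46 to 0.17). Itgb8, a further TGF-beta activating chain, was at 100 to 280 and 170 to 310, a log2 fold change of 0.50 with a wide interval from -0.30 to 1.31. Itga5, the fibronectin receptor chain, was at 1492 to 2249 and 1946 to 2408 (log2 fold change 0.22), and Itga8, a receptor chain for nephronectin, was at 45 to 77 and 52 to 86 (0.21). Differences between these fold changes were not tested.

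Itga2b (chromosome 11, 102453297 to 102470122), the αIIb chain of the platelet fibrinogen receptor, had the most negative fold change of the set. It was at 248, 123, 178 and 175 in ApcMin/+ replicates 1 to 4 and at 68, 104, 78 and 93 in the knockout libraries. The highest knockout library lay below the lowest ApcMin/+ library, and the log2 fold change was -1.04 ± 0.26 (limma adjusted p = 0.125). It passed in a fit without ApcMin/+ replicate 2, which also held no covariate for the direction removed by the normalisation (-1.21, limma adjusted p = 0.0387). There 1.9% of all tested genes passed. Itgb3, the platelet partner of Itga2b, was higher in the knockout, as given above. Of the platelet and megakaryocyte markers, 8 in all, Gp5, Gp6 and Treml1 were at 10 or below in every library. Their summed level was 1030 to 1485 in ApcMin/+ and 1582 to 1942 in knockout libraries, most of it from Gp1bb (808 to 1292 and 1385 to 1659). Ppbp and Pf4, chemokine genes of platelet granules, had log2 fold changes of 1.28 and 0.55, and Gp1ba, a platelet glycoprotein gene, had -1.04 (limma adjusted p 0.138, 0.321 and 0.146). All 8 markers of mast cells, cells that in the mouse can also carry αIIb, had a log2 fold change below 0, with a median of -1.70, and 0 passed the adjusted limma threshold. Their summed level was 35741, 11088, 16046 and 25577 in ApcMin/+ replicates 1 to 4 and 4927 to 7354 in the knockout libraries. Mcpt1 and Mcpt2 made up most of this sum. Among ApcMin/+ libraries, replicate 1 was highest and replicate 2 lowest for Itga2b and for the sum. The marker Kit ran the other way, at 1175, 2731, 2054 and 1410 in ApcMin/+ replicates 1 to 4. In the other mast cell markers replicate 1 was highest and replicate 2 lowest. Among knockout libraries, Itga2b was highest in replicate 2 and lowest in the unnumbered library. There the mast cell sum was highest in replicate 4 and lowest in replicate 3. The part of these cells in the value of Itga2b was not tested.

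The collagen receptor chains had fold changes on both sides of 0. Itga10 (chromosome 3, 96645584 to 96664519), a collagen receptor chain best known from cartilage, was at 58, 92, 80 and 67 in ApcMin/+ and at 50, 41, 27 and 34 in knockout libraries. The groups did not overlap (log2 fold change -0.96 ± 0.28, limma adjusted p = 0.151). Itga1 was at 531 to 696 and 651 to 755 (log2 fold change 0.23, 95% interval -0.06 to 0.51). Itga2, the alpha chain of epithelial and platelet α2β1, was at 719, 892, 599 and 1160 in ApcMin/+ and at 1324, 781, 1281 and 1236 in knockout libraries. Knockout replicate 2 lay among the ApcMin/+ libraries and the other 3 lay above them (log2 fold change 0.47, 95% interval -0.09 to 1.03). Itga11, a fibroblast collagen receptor chain, was at 56 to 150 and 102 to 208, a log2 fold change of 0.55 with an interval from -0.27 to 1.37.

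Of the leukocyte subunits, Itgam_1 was higher and Itgae lower in knockout adenomas, without passing the adjusted threshold. Itgam (chromosome 7, 128062640 to 128118491) encodes αM, known as CD11b, of neutrophils and macrophages. Itgam_1 was at 289, 386, 276 and 453 in ApcMin/+ and at 538, 631, 676 and 629 in knockout libraries. Every knockout library lay above every ApcMin/+ library (log2 fold change 0.84 ± 0.19, limma adjusted p = 0.108). It passed in a fit without ApcMin/+ replicate 4, which also held no covariate for the direction removed by the normalisation (0.97, limma adjusted p = 0.0413). There 0.75% of all tested genes passed. Itgad and Itgax, the neighbouring genes for αD and αX, were at 11 to 32 and 7 to 34 (log2 fold change -0.27) and at 356 to 562 and 311 to 458 (-0.15). Itgb2, the beta chain they share, was at 366 to 652 and 456 to 723, a log2 fold change of 0.29 (95% interval -0.23 to 0.81), and Itgal, the lymphocyte chain αL, was at 223 to 368 and 253 to 401 (0.28).

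Neutrophil markers lay higher in the knockout beside Itgam_1. All 8 had a log2 fold change above 0, with a median of 1.68, and 0 passed the adjusted limma threshold. Their unadjusted limma p was under 0.05 for 6 of the 8, all higher, against 7.39% of all tested genes. Their summed level was 957 to 2056 in ApcMin/+ and 1754 to 5568 in knockout libraries. The largest part of this sum came from Mmp9, at 613 to 1551 and 711 to 2400. Taken singly, 6 of the 8 markers were higher in every knockout library than in any ApcMin/+ library, against 5.5% of all tested genes. The 8 macrophage markers had a median of 0.02, with summed levels of 5538 to 7193 and 5692 to 8175. For 1 of these 8, Mrc1, every knockout library (340 to 543) lay above every ApcMin/+ library (221 to 338). Its log2 fold change was 0.70 (limma adjusted p = 0.151). The part of either cell type in the value of Itgam_1 was not tested.

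Itgae (chromosome 11, 73090583 to 73147446), the αE chain of intraepithelial lymphocytes and mucosal mast cells, was at 408, 447, 313 and 645 in ApcMin/+ and at 349, 231, 278 and 231 in knockout libraries. The unnumbered knockout library lay within the ApcMin/+ range (log2 fold change -0.71 ± 0.24, limma adjusted p = 0.188). Its partner Itgb7 was at 301, 281, 228 and 431 in ApcMin/+ and at 263, 298, 201 and 176 in knockout libraries. For both, ApcMin/+ replicate 4 was highest, and the log2 fold change of Itgb7 was -0.39 (95% interval -0.96 to 0.18). The T cell markers, 11 in all, had a median log2 fold change of -0.20, with summed levels of 1896 to 4483 in ApcMin/+ and 2093 to 2800 in knockout libraries, and ApcMin/+ replicate 4 was highest there as well. The mast cell markers, given above, had a median of -1.70, and ApcMin/+ replicate 1 was highest in their sum. The part of either cell type in the values of Itgae was not tested. Cdh1, the E-cadherin that αEβ7 binds, had a log2 fold change of -0.16.

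Itga4 (chromosome 2, 79255426 to 79333123), the α4 chain that pairs with β1 or β7 on leukocytes and binds VCAM-1 and MAdCAM-1, was at 182, 184, 178 and 185 in ApcMin/+ and at 293, 271, 272 and 221 in knockout libraries. The ApcMin/+ libraries lay within a few units of each other and below all knockout libraries (log2 fold change 0.53 ± 0.15, limma adjusted p = 0.148). Its ligand genes Madcam1 and Vcam1 had log2 fold changes of 0.58 and -0.21. Itga9, a related chain that binds tenascin and VCAM-1, was at 622 to 1486 and 767 to 1078 (log2 fold change -0.10). Itgb2l, a β2-like gene, was at 25 to 47 and 16 to 42 (-0.54), and Lamc3 was at 5 to 18 and 5 to 19 (-0.13), both too low to give narrow intervals.

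**Figure D4:**
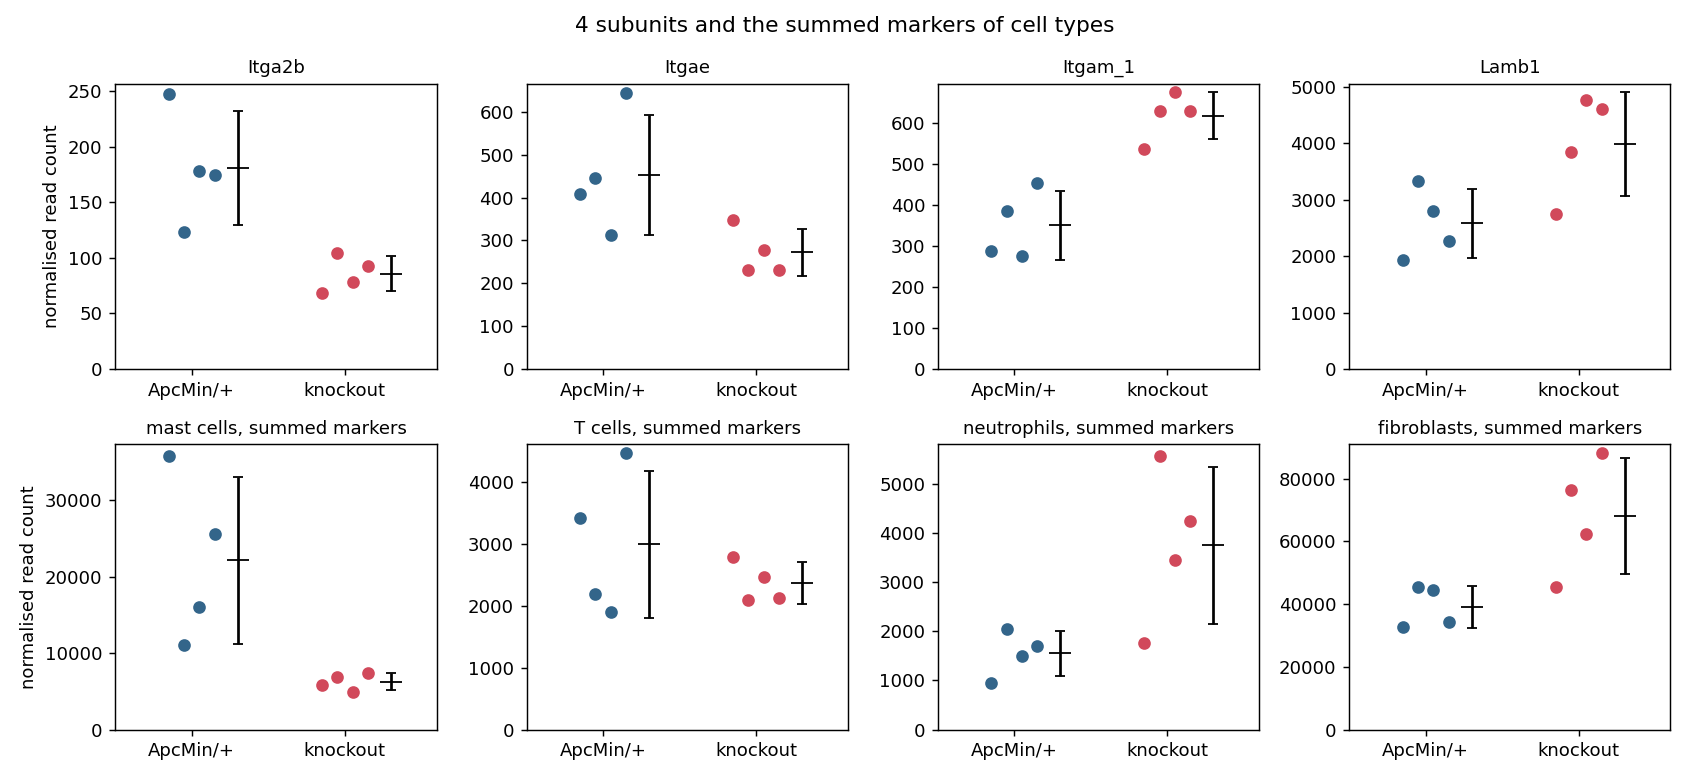
Normalised read counts (y axis) of 4 rows (top) and summed normalised read counts of marker lists (bottom), 1 point per library in the order ApcMin/+ replicates 1 to 4, unnumbered knockout library and knockout replicates 2 to 4, with mean and SD (black, n = 4). Itga2b and the mast cell markers are lower in every knockout library, Itgam_1 is higher in every knockout library, and the T cell and neutrophil sums overlap.

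The start regions of the 5 rows whose genotypes did not overlap are shown because they are the rows best separated by library. They are 250 bases before the RefSeq start site (GRCm38.p6), 5′ to 3′ on the strand of the gene. Capitals mark matches, on either strand, to 4 short motifs that were chosen afterwards: AGATAA for GATA factors, GAGGAA for ETS factors such as PU.1, GGGCGG for SP factors and TGANTCA for AP-1.
Itgam, chr7:128062390-128062639, plus strand: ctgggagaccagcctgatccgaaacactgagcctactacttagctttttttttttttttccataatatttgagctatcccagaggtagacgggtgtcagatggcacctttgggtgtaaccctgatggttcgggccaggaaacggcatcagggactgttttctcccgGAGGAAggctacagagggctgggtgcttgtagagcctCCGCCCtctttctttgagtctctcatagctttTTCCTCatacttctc
Itga2b, chr11:102469884-102470133, minus strand: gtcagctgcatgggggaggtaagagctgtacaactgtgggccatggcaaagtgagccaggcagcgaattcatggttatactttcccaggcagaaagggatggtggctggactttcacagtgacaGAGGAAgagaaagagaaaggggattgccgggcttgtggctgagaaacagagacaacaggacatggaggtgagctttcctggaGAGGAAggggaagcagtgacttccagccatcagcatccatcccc
Itga4, chr2:79255176-79255425, plus strand: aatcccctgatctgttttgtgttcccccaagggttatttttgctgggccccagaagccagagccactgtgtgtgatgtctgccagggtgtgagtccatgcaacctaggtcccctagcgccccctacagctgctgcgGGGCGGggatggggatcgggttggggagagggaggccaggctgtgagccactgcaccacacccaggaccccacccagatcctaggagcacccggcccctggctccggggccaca
Itga10, chr3:96645334-96645583, plus strand: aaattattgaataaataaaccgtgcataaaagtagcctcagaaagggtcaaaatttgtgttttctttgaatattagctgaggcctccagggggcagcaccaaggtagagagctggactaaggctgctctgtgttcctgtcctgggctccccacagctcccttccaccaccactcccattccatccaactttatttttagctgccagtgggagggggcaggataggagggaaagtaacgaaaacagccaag
Lama2, chr10:27616943-27617192, minus strand: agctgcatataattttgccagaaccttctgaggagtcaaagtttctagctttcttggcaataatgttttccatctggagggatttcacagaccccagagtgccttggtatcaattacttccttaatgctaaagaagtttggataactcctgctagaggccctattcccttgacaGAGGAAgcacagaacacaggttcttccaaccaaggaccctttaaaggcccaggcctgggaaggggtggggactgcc
The ETS letters were found in the windows of Itgam (2 matches), Itga2b (2) and Lama2 (1), and 23.1% of 27025 such windows, 1 per gene, hold them. The SP letters were found in Itgam (1) and Itga4 (1), against 32.9% of windows. The GATA and AP-1 letters, in 10.3% and 6.87% of windows, were in none of the 5. No matches overlapped. For Lama2 the RefSeq start lies 2816 bases downstream of the outermost GENCODE start, and for Itga2b 239 bases. The Lama2 window thus lies wholly inside the gene as GENCODE annotates it, and the Itga2b window mostly so. These matches describe the letters of the windows only.

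Most subunits split the ApcMin/+ libraries, as did most of all tested genes. For 13 of 38 rows (34.2%) ApcMin/+ replicates 2 and 3 both lay below replicates 1 and 4, against 36.4% of all tested genes. For 12 rows (31.6%) both lay above them, against 23.5% of all tested genes. The lower rows reported here were Itga3, Itga6, Itga8, Itgad, Itgav, Itgb2l, Itgb4, Itgb5, Itgb6, Itgb7, Lama3 and Lamb3. The higher rows were Itga5, Itga10, Itga11, Itgb3, Itgb8, Lama1, Lama2, Lama4, Lama5, Lamb1, Lamb2 and Lamc3. Summed epithelial markers were at 468133 and 477733 in ApcMin/+ replicates 2 and 3 and at 774959 and 834841 in replicates 1 and 4. Summed fibroblast markers were at 45304 and 44569 in replicates 2 and 3 and at 32765 and 34154 in replicates 1 and 4. Their part in the split was not tested.

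ApcMin/+ replicates 2 and 3 are also the ApcMin/+ libraries with high Xist. Of the 25 rows that split, the knockout library with high Xist lay outside the other 3 knockout libraries on the same side for 3. It lay inside their range for 9 and on the opposite side for the others. That is 1 library, and the same count was not made over all tested genes. The part of Xist in the split was not tested. In the 5 libraries with Xist at or below 1000, all of the 38 rows but Lamc3 were tested. Of these, 9 passed the limma threshold, 6 higher and 3 lower in the knockout. Of all 16635 genes tested there, 2198 passed (13.2%), 688 higher and 1510 lower. Lamb1 (1.06), Lama1 (1.13), Lama4 (0.82), Itgb3 (0.80), Itgam_1 (0.83) and Itga5 (0.47) were higher in the knockout, and Itga2b (-1.19), Itgae (-1.06) and Itga3 (-0.58) lower. Their limma adjusted p-values ran from 0.00923 for Lamb1 to 0.0478 for Itga5. That fit compares ApcMin/+ replicates 1 and 4 with 3 knockout libraries and has 3 residual degrees of freedom. It held no covariate for the direction removed by the normalisation. That direction sets replicate 1 against replicate 4, so the p-values of this fit can be too small.

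**Figure D5:**
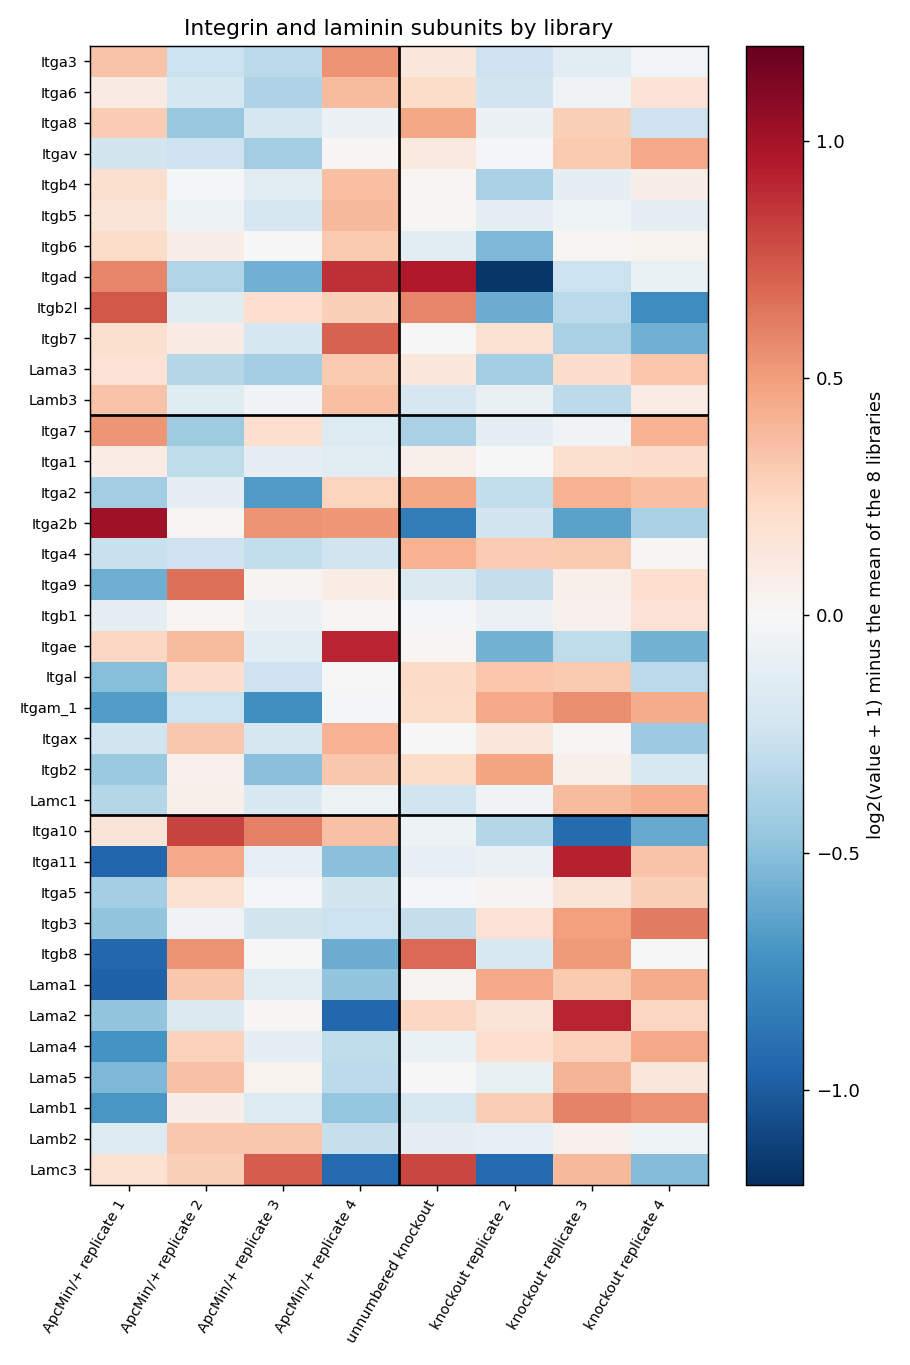
Log2(value + 1) minus the mean over the 8 libraries (colour) of 37 tested rows, by library (columns). Horizontal lines set apart 12 rows that are lower in ApcMin/+ replicates 2 and 3 than in 1 and 4 (top), 13 rows that overlap (middle) and 12 rows that are higher (bottom).

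Of the genes that act with integrins and laminins, taken from 5 written lists, the connective tissue growth factor gene Ctgf, a matricellular integrin ligand, was the only one to pass over all genes. Ctgf rose from 451, 521, 530 and 443 in ApcMin/+ to 866, 951, 745 and 881 in knockout libraries, with no overlap (log2 fold change 0.82 ± 0.13, limma adjusted p = 0.0486). The call was lost in 12 of 22 other settings. Of 28 tested integrin ligands, 1 rose and 0 fell at the adjusted threshold, and 10 were higher and 0 lower at an unadjusted limma p under 0.05, against 7.39% and 11.6% of all tested genes. The median of the 28 was 0.40 on the log2 fold change scale. Fbn1, the fibrillin gene, was at 644 to 769 and 1132 to 1591 (log2 fold change 0.84, limma adjusted p = 0.0531), and Col1a2, a collagen gene, had 0.89 (0.129). Fn1, the fibronectin gene, was at 5562 to 10691 and 9634 to 12310 (log2 fold change 0.53, limma adjusted p = 0.268).

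Of 23 other basement membrane components, 0 passed and 8 were higher and 0 lower at an unadjusted limma p under 0.05, against 7.39% and 11.6% of all tested genes, with a median of 0.10. Col18a1, Nid2 and Col4a2, which encode a heparan sulfate collagen, a laminin-linking nidogen and a network collagen, had log2 fold changes of 0.42, 0.61 and 0.57 (limma adjusted p 0.151, 0.181 and 0.184). Of 36 focal adhesion adaptors and kinases, 0 passed, with 3 higher and 3 lower at an unadjusted limma p under 0.05, a share of 16.7% against 18.9% of all tested genes, and a median of -0.02. Lims1 and Ilk, partners in the complex that binds integrin beta tails, had log2 fold changes of 0.36 and -0.30, and the small GTPase gene Rap1b, an integrin activator, had 0.34 (limma adjusted p 0.122, 0.149 and 0.174). Of 5 other laminin receptors 0 passed. The syndecan genes Sdc2, Sdc4 and Sdc1 had log2 fold changes of -0.46, -0.22 and -0.22, and Dag1, the dystroglycan gene, had 0.17. For 2 of the 5, Sdc2 and Sdc1, every knockout library lay below every ApcMin/+ library, against 10.6% of all tested genes. Of 10 fibroblast markers, 0 passed the adjusted limma threshold and 9 had a log2 fold change above 0, with a median of 0.73. Their summed levels were 32765 to 45304 in ApcMin/+ and 45366 to 88108 in knockout libraries. The endothelial sums were 7595 to 13207 and 9810 to 14338. Of the 10 endothelial markers, 8 had a log2 fold change above 0, with a median of 0.27. Only Lyve1, a marker of lymphatic vessels, passed (log2 fold change 1.19, limma adjusted p = 0.0497). Esam went the other way and was lower in every knockout library (-0.26, limma adjusted p = 0.251). Col1a1, Col1a2 and Col3a1 are on the fibroblast and the ligand lists alike. The part of these cells in the values of matrix and laminin genes was not tested.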

How the data were processed

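The deposited sheet holds, per the file headers, read counts that the authors normalised by RUVs, a method that subtracts unwanted factors estimated among replicates, given as whole numbers, so the values are a score and not raw counts. Reads were placed on mm10 (submitters' processing notes), from strand-specific libraries per the labels; the aligner and counter are not given in the sources used. Libraries were grouped by the labels, which number the mice, and 1 knockout column by its genotype alone. Left out were 27 rows with names turned into dates. The values of 1 laminin row, which is part of the counts over all rows, are not reported here.

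Genes at 10 or above in at least 4 libraries were tested with limma 3.58.1 in R 4.3.3 (lmFit, eBayes with trend) on log2(value + 1), with Benjamini-Hochberg adjustment over all 17523. A direction among replicates with a singular value under 0.1 of the largest was taken as removed by the normalisation. There was 1 (0.0954 against 53.8, over 12052 genes at 100 or above in all libraries), which sets ApcMin/+ replicates 1 and 2 against 3 and 4 and thus the libraries whose column headers start with different codes. It entered as a covariate, leaving 5 residual degrees of freedom. P-values can still be too small after such a normalisation. Sfn was tested by exact permutation.

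Lengths and positions came from GENCODE M21 (GRCm38), and start regions from RefSeq (GRCm38.p6), with all 5 matched by symbol. The gene families and all lists, marker lists included, were chosen with earlier results of these data known. Rows with an unadjusted p under 0.05, rows without overlap and the hemidesmosome, αv, β1 and main laminin subunits are given by library, and others by range. Of each list the genes that passed and the 3 with the smallest p are named; Fn1, Cdh1, Vcam1, Madcam1, Dag1 and the marker genes were added after their values were seen.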

Additional observations from a re-analysis of the deposited data

Results flagged for a closer look

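In 2 of 78 groups of 4 libraries, 1 library stood apart from the other 3 by a gap past Dixon's 95% critical value, which chance gives in about 1 of 20 groups. Lama2 was at 148 in knockout replicate 3, with the other knockout libraries at 87 to 93. Itga2 was at 781 in knockout replicate 2, with the other knockout libraries at 1236 to 1324.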

How the results depend on the processing

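Depth before normalisation is unknown, and 4 libraries per genotype limit the precision. No paired analysis was possible because the labels number mice and not pairs. Alternatives were a pseudocount of 0.5 or 5, no filter or one of 50, median-ratio and quantile scaling, the removed direction not counted, the header code in its place, the code that both genotypes share alone (6 libraries), robust eBayes, array weights, Xist as a covariate, the 5 libraries with low Xist, a threshold of 0.1 and leaving out each library. The 10 rows with an unadjusted limma p under 0.05 kept their direction in all 21 refits.

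The number of integrin and laminin rows that passed was 0 except 1 (Itgam_1) with the removed direction not counted, 9 with low Xist, and 0 to 1 when a library was left out. Over all tested genes it was 58, and 426 with the removed direction not counted, 18 with the header code as a covariate, 9 with the shared code, 13 with array weights, 2198 with low Xist, 170 at a threshold of 0.1, and 16 to 329 when a library was left out. The number was 16 to 21 without a knockout library and 54 to 329 without an ApcMin/+ library. In the fits without an ApcMin/+ library, with the shared code alone or with low Xist, no removed direction was found and none was counted. Leaving out an ApcMin/+ library and not counting the direction cannot be told apart there. Of the 58, 33 were higher and 25 lower, a split of 38 to 18 with median-ratio and of 40 to 20 with quantile scaling. Of the list genes 1 passed, and 0 with a pseudocount of 5, with no filter, with a filter of 50, with the header code, with the shared code, with array weights or with Xist as a covariate; 2 after quantile normalisation, with robust eBayes or at a threshold of 0.1; 3 with the removed direction not counted; 20 with low Xist; and 0 to 2 when a library was left out. Sfn was at -12.76 with the shared code (exact permutation p = 0.0667, the smallest that 6 libraries allow). The causes were not tested.

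Of 773 refitted fold changes of the rows reported singly, 19 turned sign, in 9 rows. With low Xist these were Itga6 (-0.28), Itga8 (-0.13), Itga9 (0.24), Lama3 (-0.20) and Lamb2 (0.19). With Xist as a covariate it was Lamc3 (0.12), and with array weights Itgad (0.047) and Lamc3 (0.31). When a library was left out, values ran from -0.28 to 0.0075 for Itga3, -0.062 to 0.19 for Itga6, -0.22 to 0.096 for Itga7, -0.31 to 0.10 for Itga9, -0.63 to 0.077 for Itgad and -0.47 to 0.16 for Lamc3.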
